A study of Mus musculus with 6 samples.

Results

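The genes described here carry a cell through mitosis and police its spindle. They were chosen by name, from a list of 43 symbols, and 42 of them were found in the platform annotation of the mouse arrays, out of 18193 annotated genes. No probe set carried the symbol Ccnb1, so the cyclin B1 transcript was not analysed here. Each gene is represented by its probe set with the highest mean signal over 6 arrays, all 42 of which passed the filter on dim probe sets, with no signal under the background limit of 112 units on any array. The RNA came from mouse hair follicle bulbs at postnatal day 9. Bulbs called emN1 (2 arrays) came from skin areas with embryonic Notch1 deletion and lack functional Notch1, whereas anN1 bulbs (2 arrays) lay in skin deleted only in anagen, the growth phase of the follicle, and keep functional Notch1. Wild-type bulbs (2 arrays) complete the design, and anN1 and wild-type together are the 4 control arrays. The labels give neither the recombinase, its promoter, the strain nor the sex, and they call the 2 replicates of a group biological without naming animals, so that a p-value covers only the spread among these 6 samples. Set 1 of the arrays held emN1 replicate 1 and anN1 replicate 1, and set 2 held the other 4.

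Entry into mitosis is driven by Cdk1 bound to cyclins A and B, which the Cdc25 phosphatases switch on and which the transcription factor Foxm1 helps to supply. Chromosomes are then compacted by topoisomerase and condensin and attached to the spindle at kinetochores, while the spindle checkpoint holds back the anaphase-promoting complex until every chromosome is attached. In a growing hair bulb the dividing cells are mainly matrix keratinocytes around the dermal papilla, whose daughters form the shaft and its sheaths. In such bulk RNA, fewer dividing cells and less mitotic RNA per dividing cell cannot be told apart.

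Control probe ratios, which reflect RNA or labelling quality, differed between the array sets for beta-actin and less clearly for Gapdh. The ratio of 3' to 5' control probe signal for beta-actin was 4.60 in emN1 and 5.64 in anN1 in set 1, and 2.39 to 2.71 in set 2, where emN1 and anN1 both gave 2.39. For Gapdh it was 4.80 and 6.96 in set 1 and 4.64 to 5.45 in set 2, so that only anN1 of set 1 lay outside the set 2 range. Within set 1 both ratios were higher in anN1 than in emN1. All 6 arrays had the same trimmed mean signal of 1500. Notch1, the check of the labels, gave 6498 and 6292 in emN1, with 15077 and 12527 for anN1 and 23750 and 34070 for wild-type (emN1 minus controls log2 -1.55, SE 0.35; limma adjusted p = 0.0491). Both anN1 arrays thus lay above emN1 and below both wild-type arrays, although their label describes functional Notch1. The deleted stretch of the gene is not named, so it is unknown whether the probes lie in it.

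Most mitosis genes had a slightly lower signal in emN1 bulbs. The 4 members Foxm1, Cdc25c, Ccnb2 and Bub1b fell past the threshold of a Benjamini-Hochberg adjusted p of 0.05 in limma. None rose and 38 did not pass. Over all genes tested, 1.84% were called lower and 3.59% higher in emN1. The log2 difference, emN1 minus controls, was below 0 for 39 of the 42 members and had a median of -0.30 (quartiles -0.40 and -0.17), against a median of -0.02 and 52.5% below 0 over all 12611 genes. It ranged from -0.77 for Foxm1 to 0.10 for Cdc25b. At an unadjusted p under 0.05, 21 members were lower and 0 higher, beside 9.79% of all genes lower and 10.9% higher.

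**Figure D1:**
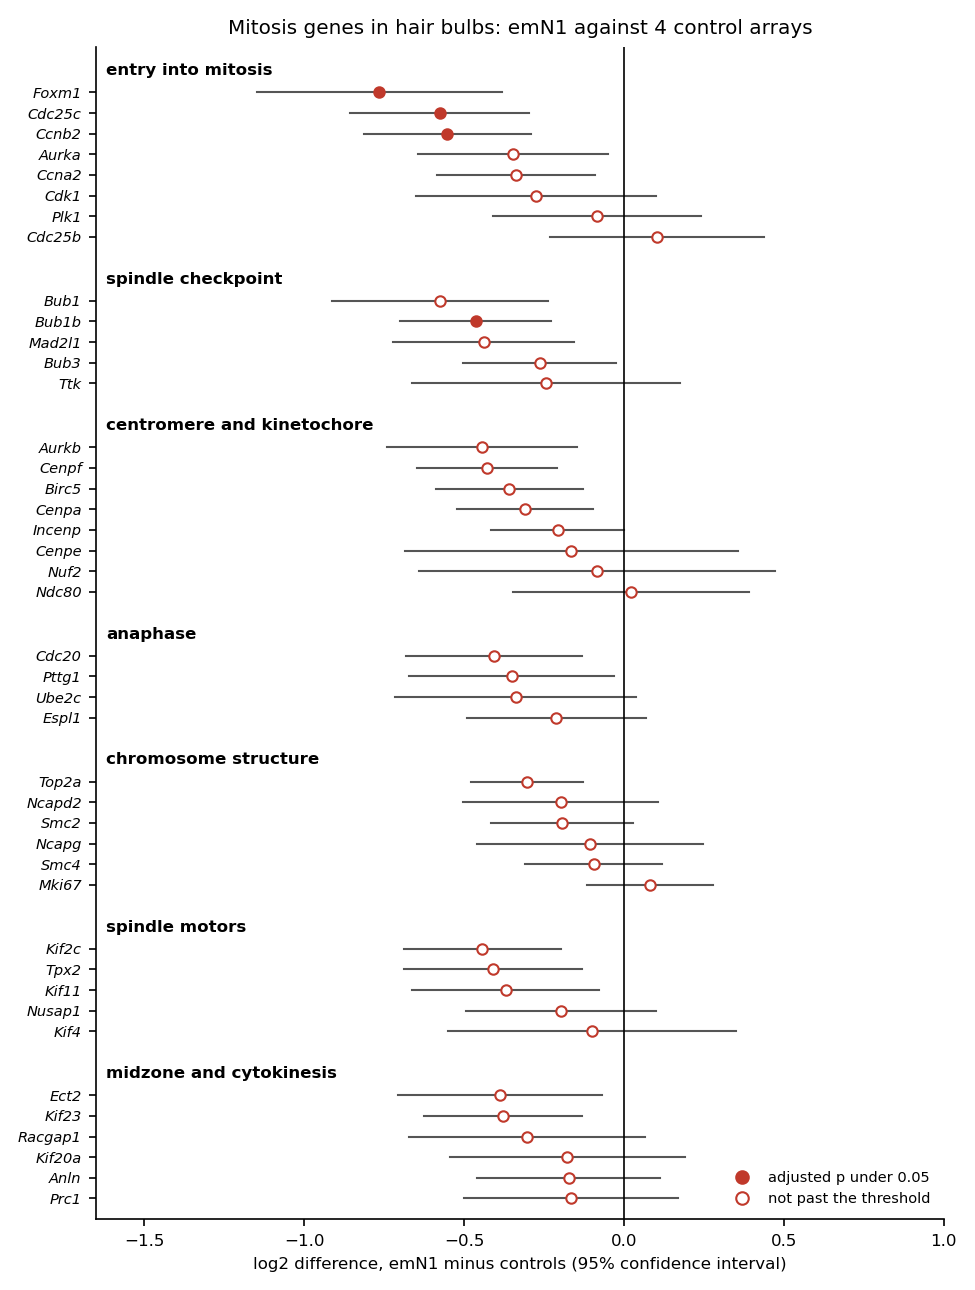
Log2 difference between 2 emN1 and 4 control arrays for each of the 42 measured mitosis genes, grouped by role, with the 95% confidence interval from limma. Filled circles mark the 4 genes with an adjusted p under 0.05, and 39 of the 42 points lie left of 0.

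The 4 calls were not stable when arrays were left out. Without anN1 replicate 2 or wild-type replicate 1 limma called 0 members, and without wild-type replicate 2 it called Foxm1 alone. These fits had 2 residual degrees of freedom in place of 3. With array set in the fit, leaving out either array of set 1 left the difference to set 2 alone. The members' median was then -0.36. Without emN1 replicate 2 the difference rested on 1 emN1 and 1 anN1 array of set 1. The median was then -0.28, with 33 members below 0 in place of 39. Dependence on a single array cannot be told apart from this loss of arrays. Without the array set as a term of the fit (no replicate block) 0 members passed and 38 lay below 0, and without an intensity trend in the variance 0 passed.

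Markers of the cell types in a bulb moved between the same groups. Of 15 hair matrix genes, all above the background limit on every array, 3 fell and 1 rose, and their summed signal was 136185 to 147667 in emN1 and 141670 to 151947 in the controls. Of 13 fibroblast genes 7 rose, with sums of 123192 to 145376 against 72654 to 93238. Of 13 immune genes 5 rose (9812 to 10866 against 3136 to 3485), with 2 to 7 of 16 markers under the background limit per array. Of 7 endothelial and mural genes 4 rose (43465 to 44323 against 17748 to 24508), with 1 to 5 of 12 markers under that limit. Of 12 basal and outer root sheath genes 7 rose and 2 fell (166214 to 191893 against 131178 to 153059), with 0 to 1 of 13 markers under that limit. Of 9 dermal papilla genes 2 rose and 2 fell (41148 to 46931 against 35351 to 41588), with 1 to 3 of 12 markers under it. Each sum covers all annotated markers of its list, so it includes those that failed the filter and were not tested. Of 9 shaft cortex genes 4 rose (277094 to 302779 against 81444 to 199703). Here the control groups differed too, with sums of 199703 and 142061 in anN1 and 86798.5 and 81444 in wild-type. In anN1 minus wild-type 4 of the 9 were called higher. Of 13 melanocyte genes 11 fell (107101 to 124405 against 250189 to 354850). No marker was listed at 0 on any array. The part of cell composition in the lower mitosis signals was not tested.

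Among the genes of entry into mitosis, 3 of 8 fell and 5 did not pass, with a median log2 difference of -0.34. Foxm1, the transcription factor that switches on many genes of this phase, gave signals of 921 and 981 in the emN1 arrays, against 1571 and 1694 for anN1 and 1847 and 1529 for wild-type. Where a pair of values is given for emN1 or anN1, here and further on, array set 1 comes first, and both wild-type values are from set 2. Both emN1 values lay well under all 4 controls. Its difference was -0.77 (SE 0.17, 2 against 4 arrays; limma adjusted p = 0.0462), which is 58.8% of the control level, and it was the same in both sets, at -0.76 and -0.77. Of the other Foxm1 probe sets, 2 passed the filter and differed by -0.60 (SE 0.19) and -0.32 (SE 0.20), neither past the threshold.

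Ccnb2 encodes cyclin B2, a partner of Cdk1. In set 1 its signal was 9287 for emN1 and 11666 for anN1, and in set 2 it was 5622 in emN1 against 9118 (anN1), 9040 and 9325 (wild-type). Each emN1 array was below every control of its own set, but the emN1 array of set 1 was not below the controls of set 2. Ccnb2 fell by 0.55 on the log2 scale (SE 0.11; limma adjusted p = 0.0369), to 68.2% of control. Cdc25c, a phosphatase that activates Cdk1, showed the same layout, with 4063 in emN1 and 5585 in anN1 in set 1, and with 2064 in emN1 against 3231 (anN1), 3247 and 3309 (wild-type) in set 2. It fell by 0.58 (SE 0.12; limma adjusted p = 0.0412), and its other probe set differed by -0.52 (SE 0.16; limma adjusted p = 0.144).

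Cdk1, the kinase of mitosis itself, did not pass. Its signals were 7110 and 5527 in emN1 against 9179 and 7227 (anN1) and 5078 and 7164 (wild-type), so that the emN1 array of set 2 lay above 1 wild-type array. The difference was -0.27 (SE 0.16; limma adjusted p = 0.471). Ccna2, encoding cyclin A2, differed by -0.34 (SE 0.11) at its brighter probe set. Its other probe set fell by 0.52 (SE 0.12; limma adjusted p = 0.0492). Aurka, a kinase of the spindle poles, differed by -0.35 (SE 0.13), with 2033 and 2131 in emN1 under 2568 to 2763 in the controls. Plk1, a kinase needed at several steps of mitosis, differed by only -0.08 (SE 0.14) and was higher in emN1 than anN1 in set 1 (2956 against 2602). Cdc25b, the phosphatase that starts Cdk1 activation, was the member with the highest value, at 0.10 (SE 0.15), and its set differences had opposite signs, 0.35 and -0.06.

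**Figure D2:**
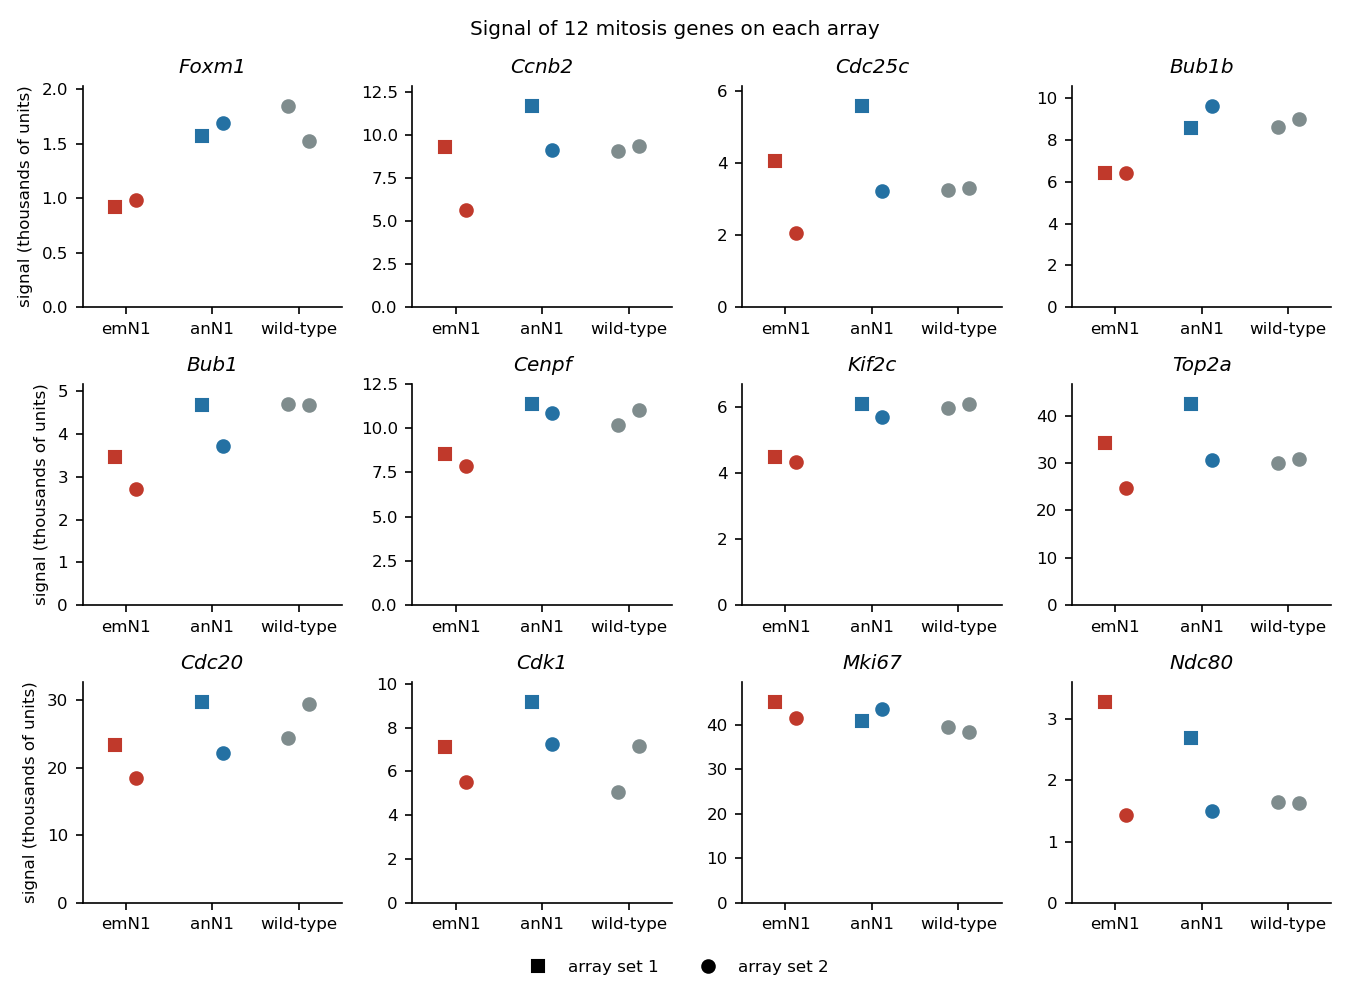
Signal on each of the 6 arrays for 12 mitosis genes, with squares for array set 1 and circles for array set 2. Both emN1 values of Foxm1 (921 and 981) lie under all controls, whereas those of Mki67 are above all controls in set 1 (45128) and among them in set 2 (41404).

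The promoters of many of these genes share sequence elements that the list was not chosen on. Genes of the late cell cycle are known to carry a short element called CHR, with the core TTTGAA, near the start of transcription, bound by the DREAM and MuvB complexes with Foxm1 or B-Myb, together with CCAAT boxes bound by NF-Y. RefSeq promoter windows of the assembly GRCm38.p6, from 250 bases before to 50 bases after the start, were found for 35 of the 43 listed genes (38 windows), Ccnb1 included, and were searched on both strands. The hexamer TTTGAA was in 29 of the 38 windows (76.3%), against 17.9% of all 32851 windows. Within 50 bases of the start it was in 65.8% of the members' windows and 4.94% of all. The same letters read backwards, AAGTTT, were in 13.2% and 14.4%.

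CCAAT was in 78.9% of the members' windows and 37.4% of all, and 2 or more copies in 47.4% and 11.7%. Both TTTGAA and at least 2 CCAAT were in 42.1% of the members' windows and 2.09% of all. A pair of CCAAT matches with first bases 31 to 33 bases apart, in either orientation, was in 5 members' windows (13.2%) and 0.971% of all. The members' windows had a median of 59.7% G and C, against 52.7% for all windows. A match is a description of these letters and no proof of binding.

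The windows below are cut at 20 bases after the start and belong to members that fell (Ccnb2 and Bub1b), to standard markers of the phase that did not pass (Cdk1, Cdc20, Top2a and Mki67), and to Birc5, which holds neither motif. Their positions in GRCm38.p6 are Ccnb2 at chr9:70421535-70421804 (minus strand), Bub1b at chr2:118597961-118598230 (plus strand), Cdc20 at chr4:118437324-118437593 (minus strand), Cdk1 at chr10:69352893-69353162 (minus strand), Top2a at chr11:99024170-99024439 (minus strand), Mki67 at chr7:135716360-135716629 (minus strand) and Birc5 at chr11:117848987-117849256 (plus strand). Each runs 5′ to 3′ on the gene's own strand. Capitals mark TTTGAA and CCAAT on either strand, so that TTCAAA and ATTGG are in capitals too.
Ccnb2: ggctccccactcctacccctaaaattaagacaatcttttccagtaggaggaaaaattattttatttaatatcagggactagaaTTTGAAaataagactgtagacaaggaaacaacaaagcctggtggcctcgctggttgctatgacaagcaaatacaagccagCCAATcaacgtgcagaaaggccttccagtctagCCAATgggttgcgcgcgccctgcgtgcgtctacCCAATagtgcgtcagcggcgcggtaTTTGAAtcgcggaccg
Bub1b: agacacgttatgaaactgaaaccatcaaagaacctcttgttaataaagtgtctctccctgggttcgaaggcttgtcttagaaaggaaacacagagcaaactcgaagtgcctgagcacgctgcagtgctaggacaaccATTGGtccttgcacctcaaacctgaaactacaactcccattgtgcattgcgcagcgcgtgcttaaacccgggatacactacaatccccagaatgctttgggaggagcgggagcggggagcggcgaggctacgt
Cdc20: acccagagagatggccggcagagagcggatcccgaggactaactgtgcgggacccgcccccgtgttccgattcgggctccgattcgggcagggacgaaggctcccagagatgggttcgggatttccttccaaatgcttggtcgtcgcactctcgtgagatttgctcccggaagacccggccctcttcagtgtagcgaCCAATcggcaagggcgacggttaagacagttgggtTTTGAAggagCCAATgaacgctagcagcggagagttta
Cdk1: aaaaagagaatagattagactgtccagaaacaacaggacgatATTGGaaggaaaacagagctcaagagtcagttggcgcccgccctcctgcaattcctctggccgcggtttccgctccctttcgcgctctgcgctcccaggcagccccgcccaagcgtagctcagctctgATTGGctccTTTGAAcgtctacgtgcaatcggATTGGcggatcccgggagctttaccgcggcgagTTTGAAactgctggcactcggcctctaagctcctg
Top2a: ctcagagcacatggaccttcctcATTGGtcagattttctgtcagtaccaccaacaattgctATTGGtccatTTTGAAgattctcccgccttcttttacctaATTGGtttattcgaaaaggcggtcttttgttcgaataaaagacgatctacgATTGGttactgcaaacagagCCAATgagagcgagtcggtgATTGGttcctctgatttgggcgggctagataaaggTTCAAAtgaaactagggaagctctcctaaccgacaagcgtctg
Mki67: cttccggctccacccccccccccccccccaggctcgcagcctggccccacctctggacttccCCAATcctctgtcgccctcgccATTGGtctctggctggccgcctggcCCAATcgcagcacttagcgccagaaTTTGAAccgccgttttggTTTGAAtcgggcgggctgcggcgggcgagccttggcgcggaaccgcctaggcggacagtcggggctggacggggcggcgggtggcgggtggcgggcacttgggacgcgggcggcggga
Birc5: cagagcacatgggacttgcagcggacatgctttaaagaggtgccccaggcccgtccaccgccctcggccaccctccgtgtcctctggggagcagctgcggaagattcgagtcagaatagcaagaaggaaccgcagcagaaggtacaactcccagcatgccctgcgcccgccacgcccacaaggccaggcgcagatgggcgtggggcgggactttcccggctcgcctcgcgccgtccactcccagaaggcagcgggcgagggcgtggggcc

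In Ccnb2 the 3 CCAAT boxes began 87, 54 and 21 bases before the start, and a TTTGAA began at base 5 after it. In Cdk1 a TTTGAA began 71 and another 15 bases before the start, and CCAAT matches began at 208, 80 and 48. The Top2a window held 6 CCAAT matches, and its nearer TTTGAA began 23 bases before the start. The single TTTGAA of Bub1b began at base 41 after the start, beyond the stretch printed. Mki67, at 0.08 in emN1 minus controls, held 2 TTTGAA and 3 CCAAT. The median log2 difference was -0.29 for the 26 measured members with TTTGAA and -0.27 for the 8 without. For the 14 with TTTGAA and at least 2 CCAAT it was -0.31, and for the 20 others -0.20. These medians are a description with no test.

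**Figure D3:**
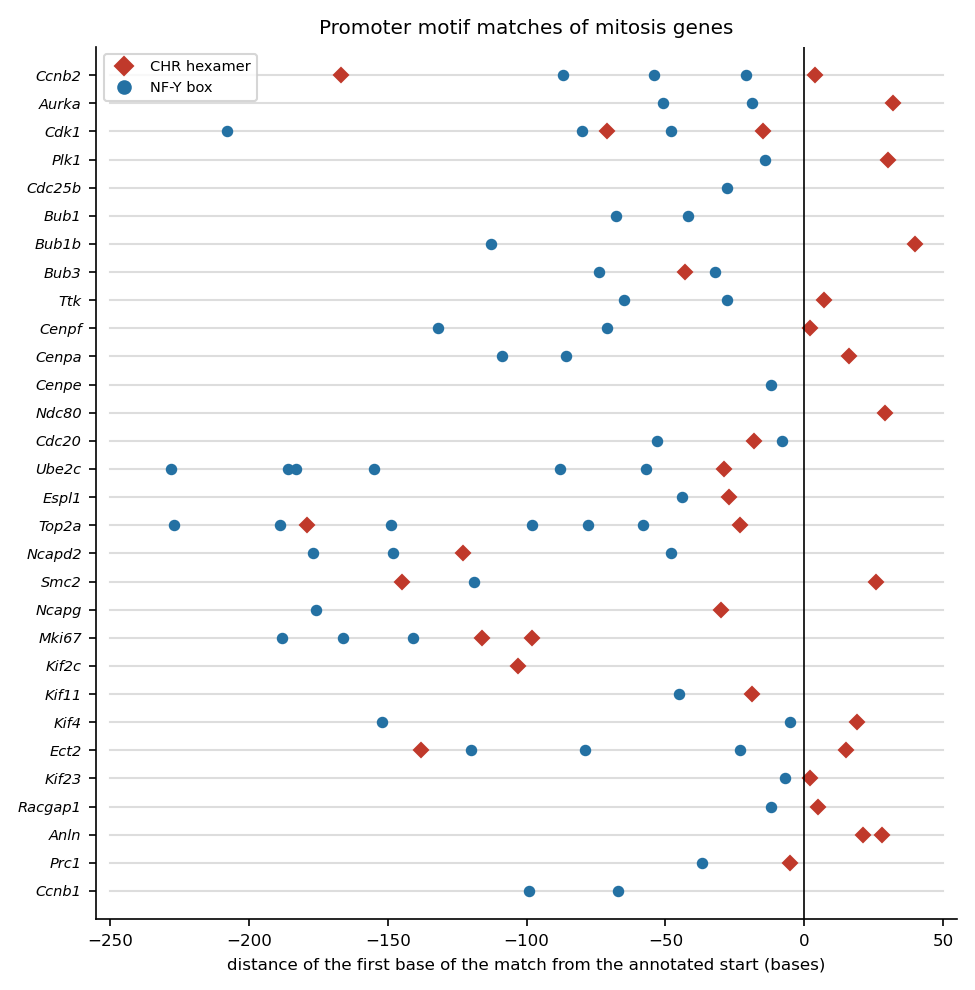
Positions of motif matches in the promoter windows of the 30 mitosis genes with at least 1 match, on either strand, as distance in bases from the annotated start (vertical line). Diamonds mark the CHR hexamer and circles the NF-Y box, and most diamonds lie within 50 bases of the start. For genes with several windows the one of lower coordinate is drawn.

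In the spindle checkpoint, 1 of 5 members fell, 4 did not pass, and all 5 had each emN1 array below every control of its set, as had 22.6% of all genes. Bub1b encodes BubR1, a component of the complex that inhibits the anaphase-promoting complex. Its signals were 6406 and 6421 in emN1 against 8567 and 9610 (anN1) and 8592 and 8988 (wild-type). The emN1 arrays were almost equal to each other and lay under all controls. Bub1b fell by 0.46 (SE 0.10; limma adjusted p = 0.0487). Its other probe set that passed the filter differed by -0.54 (SE 0.15; limma adjusted p = 0.0946). Bub1, the kinase that recruits checkpoint proteins to kinetochores, had a larger and noisier difference of -0.57 (SE 0.15; limma adjusted p = 0.0797). Its signals were 3466 and 2722 in emN1 against 4675 and 3719 (anN1) and 4707 and 4684 (wild-type), with no overlap. Mad2l1, encoding the checkpoint protein Mad2, gave 10617 and 9089 in emN1 against 11802 and 13334 (anN1) and 14709 and 14226 (wild-type). The anN1 arrays lay between the other groups, and the difference was -0.44 (SE 0.12; limma adjusted p = 0.106). Bub3, the partner of Bub1 and BubR1, and Ttk, the kinase Mps1, differed by -0.26 (SE 0.10) and -0.24 (SE 0.18).

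None of the 8 centromere, kinetochore and passenger complex genes passed, 7 of them lay below 0, and their median was -0.26. Cenpf, a kinetochore protein of late G2 and mitosis, missed the threshold narrowly (limma adjusted p = 0.0501). Its signals were 8533 and 7884 in emN1 against 11369 and 10836 (anN1) and 10189 and 11026 (wild-type), a difference of -0.43 (SE 0.10) with no overlap. The passenger complex joins the kinase Aurkb with Birc5, also called survivin, and Incenp. Birc5 gave 10083 in emN1 and 12608 in anN1 in set 1, and 5941 in emN1 against 7930 (anN1), 7308 and 8032 (wild-type) in set 2. It was lower in emN1 in both sets, by -0.36 overall (SE 0.10; limma adjusted p = 0.105), although the sets themselves differed more than the groups. Aurkb and Incenp differed by -0.44 (SE 0.13) and -0.21 (SE 0.09). Cenpa, the histone that marks centromeres, differed by -0.31 (SE 0.09), with both emN1 arrays under all controls.

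At their brightest probe sets the other kinetochore genes did not share this layout. Cenpe, a kinetochore motor, was lower in emN1 in set 1 (2151 against 3629 in anN1) and not in set 2, where emN1 gave 3188, anN1 3202, and wild-type 2620 and 2405. The other Cenpe probe set differed by -0.69 (SE 0.27; limma adjusted p = 0.240), with each emN1 array below every control of its set. It gave 418 in emN1 and 612 in anN1 in set 1. In set 2 it gave 804 in emN1 against 1559 (anN1), 1004 and 1805 (wild-type). Ndc80 and Nuf2 encode subunits of the complex that grips microtubules. Ndc80 differed by 0.02 (SE 0.16) and Nuf2 by -0.08 (SE 0.24), each higher in emN1 in set 1 and lower in set 2 than the mean of the controls.

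Among genes of chromosome structure, 0 of 6 passed and the median was nearest to 0 of the 7 roles, at -0.15. Mki67 encodes Ki-67, the usual marker of cycling cells, which coats mitotic chromosomes. Its signals were 45128 and 41404 in emN1 against 40691 and 43501 (anN1) and 39460 and 38391 (wild-type). The emN1 array of set 1 lay above all controls and that of set 2 among them, and the difference was 0.08 (95% confidence interval -0.12 to 0.28; limma adjusted p = 0.723). Top2a, the topoisomerase that untangles sister chromatids, gave 34253 in emN1 and 42528 in anN1 in set 1. In set 2 it gave 24809 in emN1 against 30701 (anN1), 29962 and 30776 (wild-type). It differed by -0.30 in emN1 (SE 0.08; limma adjusted p = 0.0760), lower in both sets by nearly the same amount (-0.31 and -0.30). At their brightest probe sets the condensin genes did not pass: Smc2 differed by -0.19 (SE 0.10), Smc4 by -0.09 (SE 0.09), Ncapd2 by -0.20 (SE 0.13) and Ncapg by -0.11 (SE 0.15). Their other probe sets did not pass either, but most had larger and less precise differences. These were -0.45 (SE 0.23) and -0.45 (SE 0.22) for Smc4, and -0.99 (SE 0.36) to -0.05 (SE 0.43) for Smc2. Ncapg gave -0.46 (SE 0.33) and Ncapd2 -0.42 (SE 0.29). The values for Smc2, Ncapg and Ncapd2 came from probe sets much dimmer than the brightest. Smc2 probe sets with signals of 92 to 258 and 105 to 244 lay partly under the background limit of 112. Smc2, with 8447 and 11630 in emN1 against 9163 and 14426 (anN1) and 13104 and 13815 (wild-type), followed the array set more than the group.

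None of the 5 genes of spindle motors and microtubule proteins passed, and all lay below 0, with a median of -0.37. Kif2c, which takes microtubules apart at centromeres, gave 4491 and 4327 in emN1 against 6084 and 5673 (anN1) and 5974 and 6084 (wild-type). The groups did not overlap, and the difference was -0.44 (SE 0.11; limma adjusted p = 0.0661). Tpx2, which activates Aurora A and nucleates spindle microtubules, gave 4848 in emN1 and 6125 in anN1 in set 1, and 2792 in emN1 against 3928 (anN1), 3556 and 4066 (wild-type) in set 2. Its difference of -0.41 (SE 0.12) did not pass (limma adjusted p = 0.125). Kif11, the motor that separates the spindle poles, differed by -0.37 (SE 0.13), with both emN1 arrays (2585 and 2386) under all controls (3024 to 3335). Nusap1, a microtubule bundling protein, and Kif4, a chromosome-bound motor, differed by -0.20 (SE 0.13) and -0.10 (SE 0.20).

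None of the 4 genes of anaphase and protein destruction passed, and all lay below 0, with a median of -0.34. Cdc20, the activator of the anaphase-promoting complex, gave 23336 and 18528 in emN1 against 29797 and 22253 (anN1) and 24408 and 29412 (wild-type). Each emN1 array was below the controls of its set, and the difference was -0.41 (SE 0.12; limma adjusted p = 0.123). A dimmer Cdc20 probe set, with 559 and 260 in emN1 and 981 to 1737 in the controls, fell by 1.73 (SE 0.33; limma adjusted p = 0.0279). The remaining Cdc20 probe set, with 6443 and 6457 in emN1 and 7306 to 10309 in the controls, differed by -0.47 (SE 0.13), close to the brightest. Pttg1, encoding securin, which guards the cohesin protease until anaphase, was dominated by the array set, with 31323 in emN1 and 38553 in anN1 in set 1. In set 2 it gave 11056 in emN1 against 13007 (anN1), 17727 and 13050 (wild-type). Its difference of -0.35 (SE 0.14; limma adjusted p = 0.257) turned to 0.01 without the set term. Ube2c, the enzyme that supplies ubiquitin to the complex, differed by -0.34 (SE 0.16), and Espl1, the cohesin protease separase, by -0.21 (SE 0.12).

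In the group of the midzone and cytokinesis, the steps that divide the cell body, 0 of 6 passed and all lay below 0, with a median of -0.24. Kif23, a midzone motor of the centralspindlin complex, gave 4987 and 5578 in emN1 against 6682 and 7457 (anN1) and 6659 and 7243 (wild-type). The groups did not overlap, and the difference was -0.38 (SE 0.11; limma adjusted p = 0.110). Ect2, which activates the small GTPase of the cleavage furrow, gave 5468 and 5194 in emN1 against 6093 and 6903 (anN1) and 8585 and 7330 (wild-type). Its order was emN1, anN1, wild-type, and its difference was -0.39 (SE 0.14; limma adjusted p = 0.204). Racgap1, the partner of Kif23, differed by -0.30 (SE 0.16). Anln, a scaffold of the contractile ring, Prc1, a crosslinker of midzone microtubules, and Kif20a, a motor of the midzone, differed by -0.17 (SE 0.12), -0.17 (SE 0.15) and -0.18 (SE 0.16).

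Counted over arrays, 28 of the 42 members had each emN1 array below every control array of its own set, and 0 had each above. Over all genes, 22.6% were below in this way. With no regard to set, 14 members had both emN1 arrays below all 4 controls, against 10.4% of all genes. In set 1, emN1 was lower than anN1 for 33 members, with a median of -0.28, and for 51.8% of all genes. In set 2, emN1 was lower than the mean of the 3 controls for 39 members, with a median of -0.36, and for 50.8% of all genes. It was lower than every one of the 3 for 34 members and 33.1% of all genes. The direction was lower in both sets for 31 members and 32.5% of all genes, and among the members it was opposite between the sets for 10, of which 8 were higher in set 1. Of the 10, Ube2c had the lowest value in set 2 (12190 in emN1 against 11341 in anN1 in set 1, and 5251 against 7502 to 8770 in set 2).

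**Figure D4:**
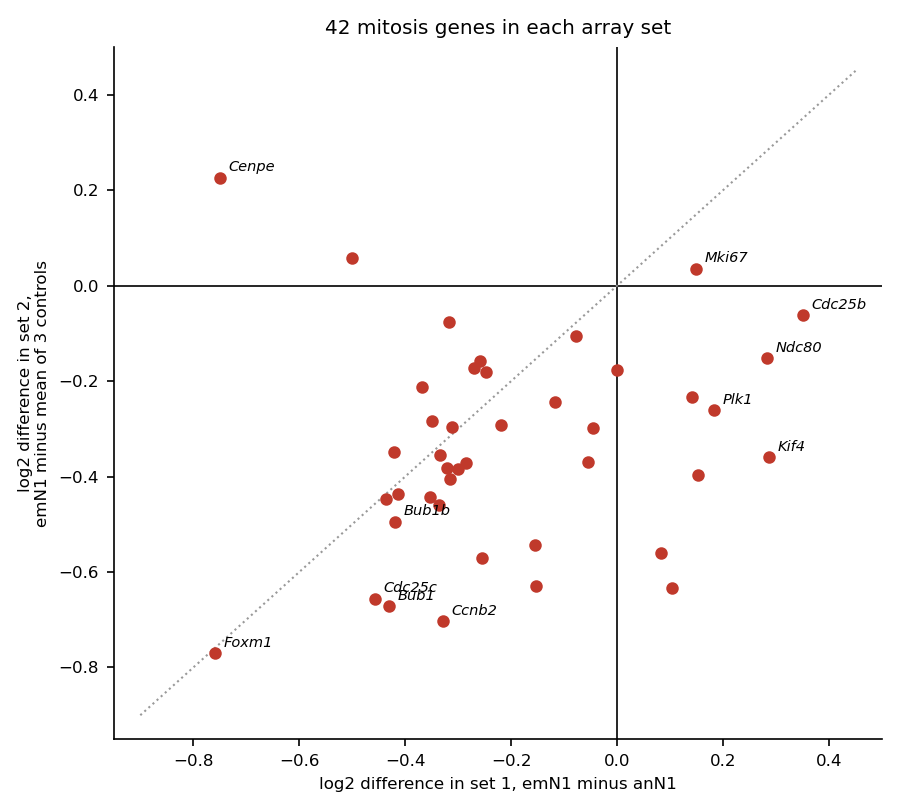
Each point is 1 of the 42 mitosis genes, placed by its log2 difference in array set 1 (emN1 minus anN1, horizontal) and in array set 2 (emN1 minus the mean of 3 controls, vertical), with a dotted line of equality. Of the points, 31 lie below 0 on both axes and 1, Mki67, lies above 0 on both.

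As an array-wide summary, each member's log2 signal was set against its own mean over 6 arrays. The median of the members was -0.10 in emN1 replicate 1 and -0.30 in emN1 replicate 2. Among the controls it was 0.19 and 0.09 (anN1) and 0.01 and 0.08 (wild-type), while the median over all genes stayed between -0.00230 and 0.0348. The array emN1 replicate 2 held the lowest signal of 24 members, emN1 replicate 1 that of 9, and the highest signal of 19 members was in anN1 replicate 1. The emN1 arrays were low within each set, and for emN1 and for anN1 the array of set 1 stood above that of set 2.

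**Figure D5:**
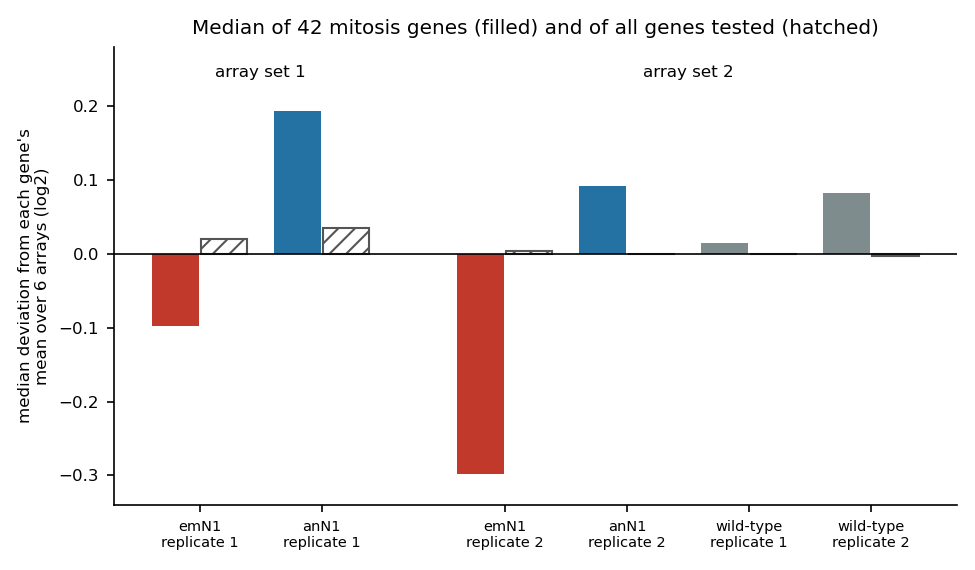
Median log2 deviation from each gene's mean over the 6 arrays, for the 42 mitosis genes (filled bars) and all 12611 genes (hatched bars), with arrays ordered by set. The filled bars of both emN1 arrays are below 0 and those of the 4 controls above 0.

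Against each control group alone, in a fit with 3 groups that share their spread, the members gave similar values and no call. From anN1 the median log2 difference was -0.31, with 39 of 42 below 0. In limma 0 members were called lower and 0 higher (smallest adjusted p 0.101), and at an unadjusted p under 0.05 there were 20 lower and 0 higher. Over all genes 0.896% were called lower and 2.13% higher after adjustment, and 7.80% were lower and 9.46% higher at the unadjusted p. From wild-type the median was -0.32, with 38 below 0, 0 called in either direction (smallest limma adjusted p 0.0507, Bub1) and 19 lower and 0 higher at an unadjusted p under 0.05. Over all genes 0.872% were called lower and 2.36% higher after adjustment, and 7.86% were lower and 9.48% higher at the unadjusted p. Both comparisons use the same emN1 arrays. Foxm1 differed by -0.77 from anN1 and -0.76 from wild-type, and Ccnb2 by -0.51 and -0.61. Bub1 was further from wild-type (-0.78) than from anN1 (-0.44), and Cdk1 and Ncapd2 the reverse, at -0.12 and -0.38 for Cdk1 and 0.00 and -0.33 for Ncapd2.

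Between the control groups, anN1 minus wild-type, the members had a median of 0.01, 19 of 42 below 0 and 0 called by limma in either direction. At an unadjusted p under 0.05, 0 were lower and 1 was higher, the condensin gene Ncapd2 at 0.33 (SE 0.12; limma adjusted p = 0.999). Over all genes 0.0238% were called lower and 0.103% higher after adjustment, and 2.27% were lower and 2.51% higher at the unadjusted p, so that 1 member of 42 is near the background. The members ran from -0.34 for Bub1 to 0.53 for Cenpe, neither past the threshold.

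Other probe sets could be set beside the brightest for 27 of the 42 members. The members had 95 probe sets, and 44 of the 53 that were not the brightest passed the filter. Of these, 35 lay below 0 and 9 above, with a median of -0.26, and 2 passed the test, both lower (Ccna2 and Cdc20). The 9 above 0 belonged to 7 members, Incenp, Cenpa, Bub3, Kif2c, Tpx2, Pttg1 and Anln, each with a brightest probe set below 0, and none of the 9 passed. The Anln probe set differed by 0.82 (SE 0.30; limma adjusted p = 0.206), where the brightest differed by -0.17. Values for Tpx2 (0.11, signals of 1097 to 1967), Pttg1 (0.18, 1170 to 2478) and Kif2c (0.04, 812 to 1334) came from probe sets well above the background limit. With each gene's probe sets averaged, 2 members passed, Ccnb2 and Cdc20, and 37 of 42 lay below 0. Ccnb2 has only 1 probe set, so averaging left its value as it was. The Cdc20 average of -0.87 includes the dim probe set at -1.73, beside brighter ones at -0.41 and -0.47 that did not pass. Averaging moved Tpx2 from -0.41 to -0.08, Pttg1 from -0.35 to -0.08 and Smc2 from -0.19 to -0.45.

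Further genes of the same process, from a separate list of kinetochore, cohesin, condensin, motor and anaphase-promoting complex genes, were measured beside the members. Of 108 measured, 3 fell, 0 rose and 105 did not pass, with 82 below 0 and a median of -0.16. Over all genes tested 1.84% were called lower and 3.59% higher, so that 3 of 108 is near the background. Of all genes 52.5% lay below 0, with a median of -0.02. At 39 of 42 and -0.30, the members' share and median were further from 0, which was not tested. Cdc25a, a phosphatase that acts before S phase and before mitosis, fell by 0.82 (SE 0.16; limma adjusted p = 0.0335), with 1882 and 1848 in emN1 and 2680 to 4131 in the controls. Trip13, an ATPase that recycles the checkpoint complex, fell by 0.44 (SE 0.10; limma adjusted p = 0.0445). Cdca8, encoding borealin of the passenger complex, fell by 0.43 (SE 0.08, limma adjusted p = 0.0303). Its partners Aurkb, Birc5 and Incenp were not called, at -0.44 (SE 0.13), -0.36 (SE 0.10) and -0.21 (SE 0.09). Without anN1 replicate 2 or wild-type replicate 1, in fits with fewer residual degrees of freedom, none of Cdc25a, Trip13 and Cdca8 was called. Fits without an array of set 1, or without emN1 replicate 2, left 1 emN1 array to the difference.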

How the data were processed

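Total RNA from hair bulbs of 3 groups (2 arrays each) was measured on one-colour mouse oligonucleotide arrays. The authors deposited linear intensity signals, 1 per probe set, made with MAS5, per the submitters' processing notes, which name no version or settings here. The trimmed mean (2nd to 98th percentile) was 1500 on every array, and values were not rescaled. Of 45101 probe sets, 64 controls were left out. Gene symbols came from the platform annotation (34958 with 1 symbol, 932 with several, 9211 with none), and 34754 were matched by gene ID in GRCm38.p6 with 0 symbols changed. The background limit of 112 is the 95th percentile of the signals of 20 bacterial control probe sets (median 24.4). These were taken to carry no added RNA, with no detection call used.

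Signals were transformed to log2(signal + 17.8), the 10th percentile of all values, which slightly understates changes of dim genes, and the upper 60% by mean log2 signal entered the tests (27022 probe sets, 12611 genes). The model was limma 3.58.1 under R 4.3.3, with an intensity trend and array set as a term, two-sided, Benjamini-Hochberg adjusted across all kept probe sets. One fit set emN1 against all controls (3 residual degrees of freedom), another had 3 groups (2). The fit was tested on simulated data. Plots were drawn with matplotlib 3.10.9.

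The numbers of emN1 and anN1 replicates mark the array set in the series' design text, and their replicate differences correlated with r = 0.38 across 27022 probe sets. Wild-type numbers mark no set (r = -0.19 and -0.02).

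Members, lists and tests were chosen with earlier results of these data known. Values on every array are given for members past the threshold, the 2 of each role with the smallest unadjusted p, and standard markers of the phase; the rest, and genes singled out by their values such as Cenpe, Aurka, Kif11, Plk1 and Ube2c, are named to account for all members. From the further mitosis genes, those past the threshold are named. With 6 arrays, their number limits the precision.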

Additional observations from a re-analysis of the deposited data

How the results depend on the processing

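The members' median kept its direction and the calls were not stable. The median log2 difference of the members between emN1 and controls ran from -0.36 to -0.22 over 13 alternatives, below 0 in each. These are not 13 separate checks. Leaving out the intensity trend or the filter on dim probe sets cannot move the median, which stayed at -0.30. The fits without emN1 replicate 1, without anN1 replicate 1 and on the second array set alone are the same estimate, -0.36. The count of members called lower, 4 as reported, was 1 without the filter on dim probe sets, 0 without the intensity trend, 0 with no replicate block, 2 with each gene's probe sets averaged, 0 in the second array set alone (an alternative chosen after seeing the data), and 0 to 1 without single replicates. It was 3 with a pseudocount of 1 and 5 with quantile normalization. The other mitosis genes called lower, 3 as reported, were 0 without the intensity trend, 0 with no replicate block, 6 with quantile normalization, 0 in the second array set alone and 0 to 3 without single replicates. Against wild-type, 1 member was lower with quantile normalization (Bub1), 1 with probe sets averaged (Cdc20), where the median was -0.20, and 0 to 1 without single replicates. Between anN1 and wild-type the median of 0.01 turned to -0.00474 with quantile normalization and ran from -0.087 to 0.053 without single replicates. The 1020 probe sets called between emN1 and controls became 0 without the trend, 286 with no replicate block, 185 in the second set alone and 1 to 1092 without single replicates. Pttg1 log2 difference turned to 0.012 with no replicate block. With the 4 emN1 and anN1 arrays alone, paired by set (replicate block), 0 members passed. Besides Pttg1, alternatives were computed gene by gene for Ccnb2, Cdk1, Bub1, Bub1b, Mad2l1, Cdc20, Cdc25c, Top2a, Mki67, Birc5, Cenpf, Kif23, Kif2c, Tpx2, Smc2, Ect2 and Foxm1, and these 17 kept their sign. Most of them were picked for a small p in this same comparison. Members with opposite signs between the array sets were not among them, so the 17 do not stand for all members. The cause of lost calls was not tested.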
